A study of Mus musculus with 9 samples.

Results

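The Sox genes described here were Sox1, Sox2, Sox3, Sox4, Sox5, Sox6, Sox8, Sox9, Sox11 and Sox21, which are 10 of the 55704 genes in a bulk RNA-seq table of cultured adult mouse neural stem cells (NSCs). They were chosen by name, as the rows whose Ensembl identifier belongs to one of these symbols, and each was found once. All cells came from the subventricular zone of C57BL/6 mice aged 8 to 9 weeks, with 2 female and 2 male mice pooled in an isolation, and were expanded for several passages in medium with bFGF and EGF. The bFGF/EGF-treated NSCs (n = 3) were collected at day 0, after 16 to 18 h of adherent culture on poly-L-ornithine and laminin in the same medium, and they are the proliferating control. In the bFGF/BMP4-treated NSCs (n = 3) EGF had been replaced by BMP4, in the BMP4-treated NSCs (n = 3) both mitogens had been replaced by BMP4, and both of these groups were collected at day 6. Each factor was used at 20 ng/mL, and the B27 supplement was free of vitamin A in the control medium, while the labels name plain B27 for both treated media. The control group served both treated groups and had a shorter culture, so the effects of the factors, of the supplement and of time in culture cannot be told apart in a comparison with it. The labels do not say whether the 3 libraries of a group came from separate cell isolations, so the p-values measure the spread between these libraries, which may be technical.

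SOX proteins are transcription factors that bind DNA through an HMG box, a domain that fits into the minor groove at sequences close to ACAAAG and ACAATG and bends the DNA. They are sorted into subgroups by the sequence of this box, and members of a subgroup often stand in for each other. In the neural lineage the SoxB1 factors (Sox1, Sox2, Sox3) are known for keeping cells in the stem and progenitor state, and the SoxB2 factor Sox21 is known for opposing them. The SoxC factors (Sox4, Sox11) are known for promoting neuronal differentiation, the SoxE factors (Sox8, Sox9, Sox10) for the glial lineages, and the SoxD factors (Sox5, Sox6), which lack an activation domain of their own, for modulating the action of SoxE. BMP4 is a ligand that signals through Smad proteins and holds adult NSCs in quiescence, whereas bFGF and EGF are mitogens.

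The relation between the subgroups can be read only in part in the start of the HMG box. The stretch below is the 51 coding bases that begin at a run of residues all 10 proteins share, in transcripts of GENCODE vM39 (build GRCm39), written 5′ to 3′ in the sense of the gene. It is shown for Sox2 and for 6 genes whose levels moved differently, and capitals mark the bases that differ from Sox2.
Sox2: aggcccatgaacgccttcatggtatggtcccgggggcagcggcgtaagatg
Sox3: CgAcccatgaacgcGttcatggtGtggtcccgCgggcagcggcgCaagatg
Sox21: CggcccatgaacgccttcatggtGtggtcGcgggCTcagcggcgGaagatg
Sox11: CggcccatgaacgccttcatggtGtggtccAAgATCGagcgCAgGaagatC
Sox5: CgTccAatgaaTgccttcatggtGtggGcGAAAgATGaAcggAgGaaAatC
Sox8: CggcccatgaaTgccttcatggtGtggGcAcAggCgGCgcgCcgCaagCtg
Sox9: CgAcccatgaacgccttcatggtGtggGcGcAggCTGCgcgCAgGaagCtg
The stretches lie at chr3:34704697-34704747 (Sox2, plus strand), chrX:59936551-59936601 (Sox3, minus strand), chr14:118472970-118473020 (Sox21, minus strand), chr12:27392207-27392257 (Sox11, minus strand), chr6:143786949-143786999 (Sox5, minus strand), chr17:25789146-25789196 (Sox8, minus strand) and chr11:112673729-112673779 (Sox9, plus strand), each within one coding exon. Sox3 and Sox21 differed from Sox2 at 6 bases each, Sox8 at 12, Sox11 at 12, Sox9 at 14 and Sox5 at 18. Within subgroups, Sox8 and Sox9 differed from each other at 6 bases, Sox4 and Sox11 at 6, Sox5 and Sox6 at 8, and Sox1 and Sox3 at 3. Some pairs of different subgroups were as close: Sox1 and Sox21 differed at 5 bases, as did Sox1 and Sox2, and Sox9 and Sox21 at 8. The longest identical run between annotated transcripts of any 2 of the 10 genes was 48 bases, shared by Sox4 and Sox11.

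Fragment numbers that can be read back from the FPKM values gave 15894250 to 17422260 fragments on genes per library. For the 10 Sox genes they ran from 142 (Sox3 in BMP4 replicate 1) to 8063 (Sox4 in bFGF/EGF replicate 3). A level of 3 fragments was taken as the floor of detection in a library, and it covers counting error only. Libraries of the same group had correlations of 0.95 to 0.964 across genes, and libraries of different groups 0.915 at most. The NSC label was checked against Nes, Vim, Slc1a3, Fabp7 and Prom1, which were all above the floor in every group. Their sum, mostly Vim and Fabp7, was 1540 to 1570 FPKM in the bFGF/EGF libraries. It was 529 to 620 FPKM in the bFGF/BMP4 and 1270 to 1730 FPKM in the BMP4 libraries. By the threshold given below, 4 of the 5 were lower in bFGF/BMP4 than in bFGF/EGF (Nes, Vim, Fabp7 and Prom1) and 0 higher. In BMP4, 1 was lower (Nes) and 1 higher (Prom1) than in bFGF/EGF. Presence above the floor is thus no measure of an unchanged NSC profile. Markers of microglia summed to at most 0.158 FPKM in any library.

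In both treated groups, most Sox levels lay below the proliferating control, but the genes differed in which medium lowered them. Sox1, Sox3 and Sox11 fell in both treated groups, Sox2 was above 100 FPKM in all libraries, and Sox8 and Sox9 went in opposite directions when bFGF was left out. A gene was called when its adjusted p was at most 0.05 (limma on log2(FPKM + 0.1), Benjamini-Hochberg over 20207 genes) and its fold change at least 2. In bFGF/BMP4 compared with bFGF/EGF, 3 of the 10 genes were called lower (Sox1, Sox3, Sox11) and 0 higher, against 14.1% and 16.5% of all genes tested. In BMP4 compared with bFGF/EGF, 5 were called lower (Sox1, Sox3, Sox8, Sox11, Sox21) and 0 higher, against 15.4% and 21.3% of all genes. In BMP4 compared with bFGF/BMP4, 3 were called lower (Sox3, Sox5, Sox8) and 1 higher (Sox9), against 5.14% and 8.41% of all genes. By adjusted p alone, 7 genes were lower and 2 higher in the first comparison, 7 lower and 1 higher in the second, and 3 lower and 1 higher in the third. The number of Sox genes called higher against the control was 0 in both treated groups also with limma-voom on the rebuilt fragments, and at an unadjusted p under 0.05 it was 2 and 1 with limma. Shares of all genes by adjusted p alone or by unadjusted p are not given here, so counts at those cuts stand without a background.

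**Figure D1:**
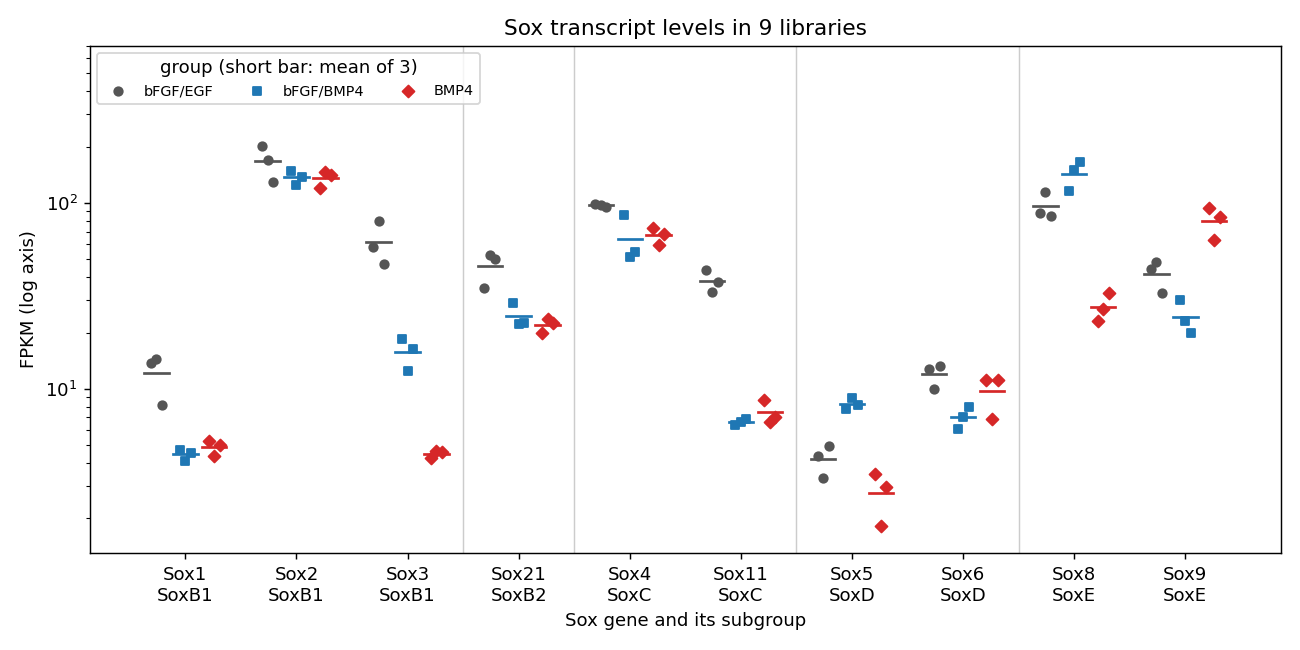
FPKM on a log axis of each of the 10 Sox genes in the 9 libraries, 1 point per library and a short bar for the mean of 3, with genes ordered by subgroup. Sox2 lies above 100 FPKM in every library, Sox3 is lower at each step from bFGF/EGF (46.6 to 80.1) through bFGF/BMP4 (12.5 to 18.4) to BMP4 (4.23 to 4.63), and Sox8 and Sox9 change places in BMP4.

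The median log2 fold change of the 10 genes was -0.77 in bFGF/BMP4 and -0.82 in BMP4 compared with bFGF/EGF, where the medians of all genes were 0.06 and 0.1. Between BMP4 and bFGF/BMP4 it was 0.05, and that of all genes was 0. The libraries of both groups did not overlap for 9, 7 and 4 of the 10 genes in these comparisons in order, against 57.7%, 60.4% and 38.7% of all genes. In a bulk library, fewer cells of a type and less RNA per cell cannot be told apart, and this holds for every level given here.

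**Figure D2:**
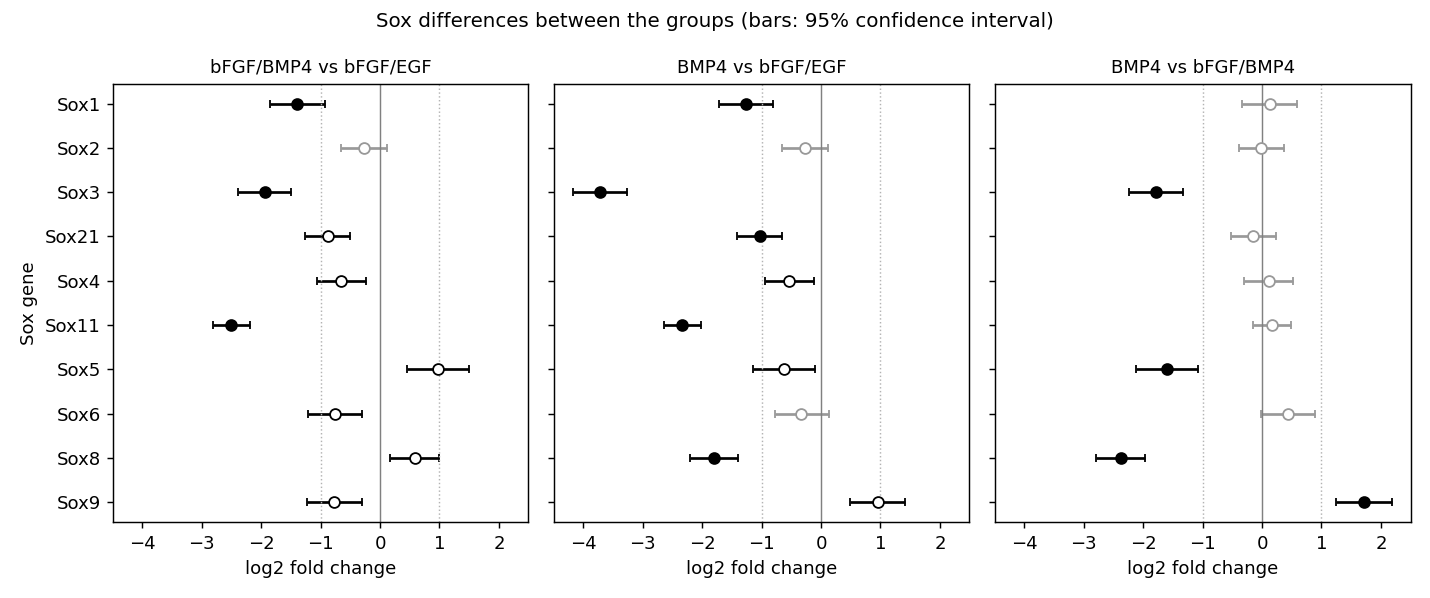
Log2 fold changes (horizontal axis) of the 10 Sox genes in the 3 comparisons from limma, with 95% confidence intervals. Filled points passed both the adjusted p and the 2-fold threshold (dotted lines), open black points the adjusted p alone, and open grey points neither. Sox3 has the largest fall (-3.72 in BMP4 compared with bFGF/EGF), and in the right panel Sox9 stands at 1.71 and Sox8 at -2.38.

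Sox2, the SoxB1 factor used as a general marker of NSCs (single exon, chromosome 3, 34704554 to 34706610 of GRCm39, plus strand), was the most abundant of the 10 genes in the bFGF/EGF and the BMP4 libraries. Its level was 202, 170 and 130 FPKM in bFGF/EGF replicates 1 to 3, 149, 125 and 137 FPKM in bFGF/BMP4, and 121, 146 and 142 FPKM in BMP4. The 3 groups overlapped, with means of 167 ± 36, 137 ± 12 and 137 ± 13 FPKM (SD, n = 3 each). The log2 fold change was -0.27 in both treated groups (adjusted p = 0.23 for bFGF/BMP4 and 0.2 for BMP4, limma), with 95% intervals of -0.65 to 0.12 and -0.66 to 0.11. By adjusted p alone Sox2 was lower in both with limma-voom on fragments (-0.38, adjusted p = 0.042, and -0.37, adjusted p = 0.043) and without bFGF/EGF replicate 3 (-0.44, adjusted p = 0.041, and -0.44, adjusted p = 0.034), under 2-fold in each case. Between both treated groups it was -0.01, with an interval of -0.39 to 0.37.

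Sox3, the X-linked SoxB1 gene (single exon, chromosome X, 59934972 to 59937036, minus strand), had the largest fold change of the 10 against the control. The control libraries had 58, 80.1 and 46.6 FPKM, followed by 18.4, 12.5 and 16.4 FPKM in bFGF/BMP4, and 4.23, 4.63 and 4.55 FPKM in BMP4. No library of one group came within the range of another. The fall from bFGF/EGF was 3.84-fold in bFGF/BMP4 (log2 fold change -1.94, standard error 0.2, adjusted p = 3.4e-05) and 13.2-fold in BMP4 (-3.72, standard error 0.2, adjusted p = 3.9e-07, limma). BMP4 was lower than bFGF/BMP4 by a log2 fold change of -1.78 (95% interval -2.23 to -1.33, adjusted p = 0.00018). An opposite-strand gene, Gm14662, shares 361 exonic bases with Sox3 and was at 0.757 to 2.71 FPKM, and whether the authors' counting used the strand is not stated.

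Sox1 (single exon, chromosome 8, 12445295 to 12450126, plus strand), the SoxB1 gene with the lowest level in the control, was at 13.7, 14.5 and 8.15 FPKM in bFGF/EGF, 4.65, 4.09 and 4.52 FPKM in bFGF/BMP4, and 5.23, 4.34 and 4.96 FPKM in BMP4. All 6 treated libraries lay below the 3 control libraries, and the treated groups overlapped each other. The log2 fold change was -1.39 in bFGF/BMP4 (standard error 0.2, adjusted p = 0.00033) and -1.27 in BMP4 (adjusted p = 0.00049), and between both 0.13 (95% interval -0.33 to 0.59, adjusted p = 0.73, limma). The 3 SoxB1 genes thus gave 3 patterns: overlapping levels for Sox2, a fall in both treated groups for Sox1, and a further fall without bFGF for Sox3. The ratio of Sox2 to Sox3 within a library averaged 2.8 ± 0.68 for the control, 8.83 ± 1 for bFGF/BMP4 and 30.5 ± 1.6 for BMP4 (SD, n = 3 per group).

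Sox21 (single exon, chromosome 14, 118470644 to 118474442, minus strand), the SoxB2 repressor of the same target sites, was at 35, 52.1 and 49.9 FPKM in bFGF/EGF, 28.9, 22.4 and 22.5 FPKM in bFGF/BMP4, and 20, 23.8 and 22.6 FPKM in BMP4. The control libraries lay above all 6 treated libraries. The log2 fold change of -1.03 in BMP4 passed the threshold (standard error 0.17, adjusted p = 0.00057, limma), and that of -0.88 in bFGF/BMP4 (adjusted p = 0.0018) was just short of 2-fold. The call in BMP4 sits at the 2-fold limit: the value was -0.92 without bFGF/EGF replicate 2, -0.95 without bFGF/EGF replicate 3 and -0.95 without BMP4 replicate 1. Without bFGF/EGF replicate 1, the value in bFGF/BMP4 was -1.06 and passed. The opposite-strand transcript Sox21os1 shares 768 exonic bases with Sox21 and had 0.362 to 0.812 FPKM.

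Sox11 (single exon, chromosome 12, 27384263 to 27392573, minus strand), a SoxC factor of newborn neurons, fell to a like extent in both treated groups. Its levels were 43.6, 33.1 and 37.6 FPKM in bFGF/EGF, 6.38, 6.6 and 6.83 FPKM in bFGF/BMP4, and 8.73, 6.63 and 7.06 FPKM in BMP4. The lowest control library was far above the highest treated library. The fall was 5.67-fold in bFGF/BMP4 (log2 fold change -2.5, standard error 0.14, adjusted p = 6.4e-07) and 5.05-fold in BMP4 (-2.34, standard error 0.14, adjusted p = 7.2e-07, limma). Between the treated groups the log2 fold change was 0.17, with a 95% interval of -0.15 to 0.48.

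Sox4 (single exon, chromosome 13, 29132902 to 29137696, minus strand), the other SoxC gene of the 10, was lowered far less. It was at 98.4, 97.6 and 95.2 FPKM in bFGF/EGF, 85.7, 51 and 54.2 FPKM in bFGF/BMP4, and 73.7, 59.4 and 68 FPKM in BMP4. The control libraries lay close together and above the other 6, and bFGF/BMP4 replicate 1 was the highest of these. The log2 fold changes of -0.65 (95% interval -1.06 to -0.23, adjusted p = 0.016) and -0.54 (-0.95 to -0.12, adjusted p = 0.032, limma) did not reach 2-fold. The adjusted p in bFGF/BMP4 was 0.057 with quantile normalization, 0.068 without bFGF/BMP4 replicate 2 and 0.062 without bFGF/BMP4 replicate 3. In BMP4 it was 0.053 with no filter, 0.082 with quantile normalization, and 0.079, 0.069 and 0.06 without bFGF/EGF replicate 1, 2 or 3, and 0.093 and 0.068 without BMP4 replicate 2 or 3. The ratio of Sox4 to Sox11 was 2.26 to 2.95 in the control libraries, 7.72 to 13.4 in bFGF/BMP4 and 8.44 to 9.63 in BMP4. The opposite-strand gene A330102I10Rik shares 907 exonic bases with Sox4 and had at most 0.547 FPKM.

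Proliferation markers were lower in each comparison, as was Sox3, whereas Sox1 and Sox11 were not called between the treated groups. Mki67, a protein of cycling cells, was at 19.8 to 51.2 FPKM in bFGF/EGF, 7.22 to 13.6 in bFGF/BMP4 and 1.55 to 1.82 in BMP4, and all 5 proliferation markers (Mki67, Top2a, Cdk1, Ccnb1, Mcm2) were called lower in each of the 3 comparisons. Their summed level was 141 to 292, 33.7 to 58.8 and 8.61 to 9.57 FPKM in the 3 groups. Markers of neuroblasts and neurons summed to 36.3 to 39, 22.9 to 30.1 and 111 to 188 FPKM, with 2 of 6 tested called lower in bFGF/BMP4 and 2 higher and 2 lower in BMP4 compared with bFGF/EGF. Most of the sum in BMP4 was Tubb3 (a mean of 145 FPKM against 20.3 in the control), while Syt1 and Elavl4 fell (log2 fold changes -3.15 and -2.34) and Elavl3 had 0.02. The part of these cell populations in the Sox1, Sox3, Sox4, Sox11 and Sox21 levels was not tested.

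Sox8 and Sox9, the SoxE genes whose HMG box stretches stand above, were called in opposite directions between the treated groups. Sox8 (chromosome 17, 25784634 to 25789726, minus strand) was at 88.6, 115 and 84.9 FPKM in bFGF/EGF, 116, 150 and 165 FPKM in bFGF/BMP4, and 23.1, 27 and 32.8 FPKM in BMP4. Every BMP4 library lay below every other library, and the bFGF/BMP4 libraries lay above the control, the closest values being 116 and 115 FPKM. In BMP4, Sox8 fell 5.2-fold compared with bFGF/BMP4 (log2 fold change -2.38, standard error 0.18, adjusted p = 1.9e-05) and 3.47-fold compared with bFGF/EGF (-1.8, adjusted p = 2.1e-05, limma). Its difference between bFGF/BMP4 and bFGF/EGF was 0.58 (95% interval 0.17 to 0.99, adjusted p = 0.024), below 2-fold. The limma adjusted p of this difference was 0.08 and 0.078 without bFGF/EGF replicate 1 or 3. It was 0.076 and 0.092 without bFGF/BMP4 replicate 2 or 3.

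Sox9 (3 exons, chromosome 11, 112673009 to 112678586, plus strand), known for its part in NSC maintenance and astrocyte specification, moved the other way. Its level was 43.9, 48.3 and 32.7 FPKM in bFGF/EGF, 30.1, 23.2 and 20 FPKM in bFGF/BMP4, and 94.3, 62.9 and 83.7 FPKM in BMP4. The 3 groups did not overlap, with bFGF/BMP4 lowest and BMP4 highest. Sox9 rose 3.28-fold in BMP4 compared with bFGF/BMP4 (log2 fold change 1.71 with a standard error of 0.21 and limma adjusted p = 0.00028). Compared with bFGF/EGF, the log2 fold change was -0.77 in bFGF/BMP4 (95% interval -1.23 to -0.3, adjusted p = 0.012) and 0.95 in BMP4 (0.48 to 1.41, adjusted p = 0.0033), neither of which reached 2-fold. The value in BMP4 was close to the limit and passed it without bFGF/EGF replicate 2 (1.06) and without BMP4 replicate 2 (1.11). The opposite-strand gene BC006965 shares 542 exonic bases with Sox9 and was at 0.153 to 0.206, 0.271 to 0.442 and 0.674 to 0.833 FPKM in the 3 groups.

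Within a library, Sox9 was at 0.385 to 0.495 times the level of Sox8 in bFGF/EGF, at 0.121 to 0.259 times in bFGF/BMP4 and at 2.33 to 4.09 times in BMP4. The sum of both was 132, 163 and 118 FPKM in bFGF/EGF, 147, 174 and 185 FPKM in bFGF/BMP4, and 117, 89.9 and 117 FPKM in BMP4. The length behind the Sox8 values, 3118 bases, is shorter than its exon length in GENCODE vM39, 5093 bases. Its level against other genes therefore depends on the gene model, as does any sum, share or ratio that holds Sox8. Comparisons of Sox8 alone between libraries do not change with the length itself, but fragments on the added bases were not measured. For Sox9 these lengths are 4135 and 4176 bases.

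**Figure D3:**
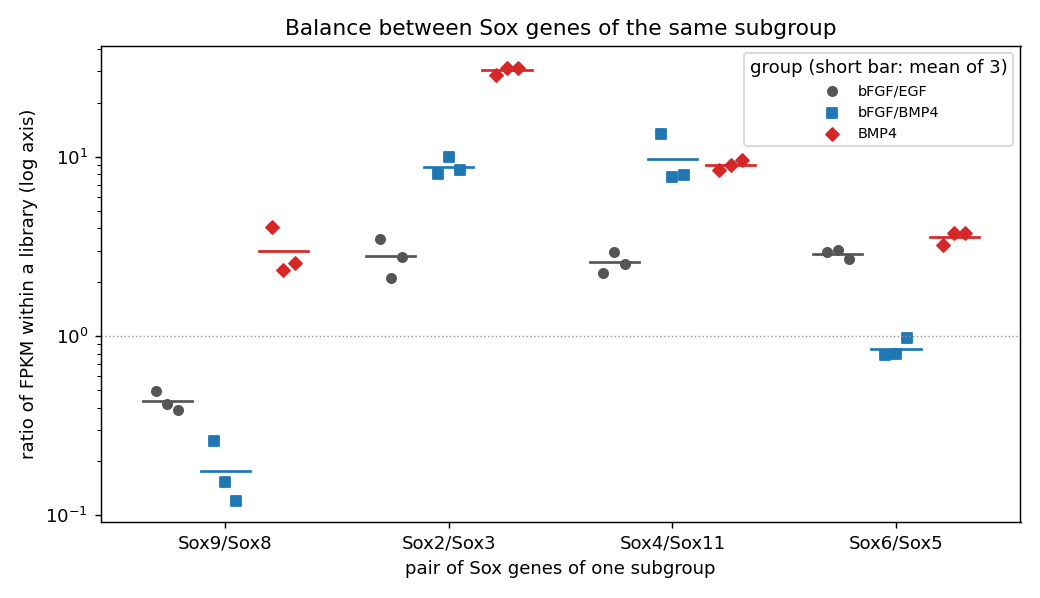
Ratio of FPKM, on a log axis, between Sox genes of the same subgroup within each of the 9 libraries, 1 point per library and a short bar for the mean of 3. The Sox9/Sox8 ratio is above 1 (dotted line) only in the BMP4 libraries (2.33 to 4.09), the Sox2/Sox3 ratio is 28.6 to 31.5 in BMP4, and the Sox6/Sox5 ratio is below 1 only in the bFGF/BMP4 libraries (0.781 to 0.973).

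The upstream windows of Sox8 and Sox9 are shown because these genes share a subgroup and moved oppositely. Each is the 250 bases before the annotated start in GENCODE vM39 (GRCm39), 5′ to 3′ in the sense of the gene, with capitals for GGCGCC, a GC-rich sequence that BMP-activated Smad proteins are known to bind.
Sox8: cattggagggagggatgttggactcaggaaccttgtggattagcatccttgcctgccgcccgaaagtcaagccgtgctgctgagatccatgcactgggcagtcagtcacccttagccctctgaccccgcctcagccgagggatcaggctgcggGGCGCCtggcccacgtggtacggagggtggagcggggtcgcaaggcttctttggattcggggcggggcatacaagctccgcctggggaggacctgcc
Sox9: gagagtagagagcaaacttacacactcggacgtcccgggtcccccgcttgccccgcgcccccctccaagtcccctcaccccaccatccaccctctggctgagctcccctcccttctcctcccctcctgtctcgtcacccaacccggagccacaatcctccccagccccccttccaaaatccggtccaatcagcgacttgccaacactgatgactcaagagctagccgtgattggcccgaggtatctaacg
The windows lie at chr17:25789727-25789976 (minus strand) and chr11:112672759-112673008 (plus strand). GGCGCC, which reads the same on both strands, was found once in the Sox8 window and in no window of the other 9 genes, and 9.31% of 21770 windows of the same length before protein-coding genes held it. The sequences ACAAAG and ACAATG, looked for on both strands, were in 2 (Sox5 and Sox6) and 0 of the 10 windows, against 15.9% and 9.41% of all windows. A match is a description of these letters and no evidence of a site.

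Markers of the glial lineages did not follow Sox8 or Sox9 in every comparison. Of 6 astrocyte markers, 5 were called higher and 1 lower (Aldh1l1) in each treated group compared with bFGF/EGF. In BMP4 compared with bFGF/BMP4, 4 were called higher and 1 lower (Slc1a2, means of 65.5 and 175 FPKM), and S100b was not called. Summed levels were 129 to 176, 492 to 526 and 3230 to 4100 FPKM in the 3 groups. The sum in BMP4 was mostly Gfap and Aqp4 (means of 2570 and 778 FPKM). Of 7 tested markers of oligodendrocyte precursors and oligodendrocytes, 4 were called lower and 1 higher in bFGF/BMP4 compared with bFGF/EGF. In BMP4, 5 were called lower and 1 higher compared with bFGF/EGF, and 2 lower and 1 higher compared with bFGF/BMP4. The summed levels, mostly Olig1 and Olig2, were 1560 to 2260, 1320 to 1800 and 243 to 444 FPKM. Among the defining markers of that lineage, Sox10, itself a SoxE gene, was at 0 in all treated libraries and Mobp in all bFGF/BMP4 libraries. Ependymal markers, summed, had 8.23 to 12.6, 11.1 to 11.7 and 57.8 to 69.9 FPKM, with 4 of 4 tested called higher in BMP4 than in either other group, and Tmem212 of that list was at 0 in all 9 libraries. Vascular markers summed to 0.15 to 0.276, 1.66 to 2.53 and 3.75 to 5.41 FPKM, with 3 of 3 tested called higher in BMP4 than in the control and Cldn5 at 0 in all libraries. Those of melanocytes and Schwann cells summed to 1.01 to 1.88, 3.63 to 4 and 3.45 to 5.14 FPKM. The background of all these marker counts was the share of all genes called. It was 16.5% higher and 14.1% lower in bFGF/BMP4, and 21.3% and 15.4% in BMP4, compared with bFGF/EGF. In BMP4 compared with bFGF/BMP4 it was 8.41% and 5.14%. The part of these cell populations in the Sox8 and Sox9 levels was not tested.

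Sox5 (chromosome 6, 143774151 to 144727703, minus strand), a SoxD gene, was highest in the bFGF/BMP4-treated NSCs. Its level was 4.32, 3.3 and 4.93 FPKM in bFGF/EGF, 7.72, 8.86 and 8.17 FPKM in bFGF/BMP4, and 3.45, 1.82 and 2.94 FPKM in BMP4. The bFGF/BMP4 libraries stood above the other 6, which overlapped each other. Sox5 fell 3.04-fold in BMP4 compared with bFGF/BMP4 (log2 fold change -1.6 with a standard error of 0.23 and limma adjusted p = 0.00081). In bFGF/BMP4 it was higher than in bFGF/EGF by 0.98 (95% interval 0.46 to 1.5, adjusted p = 0.0058), just under 2-fold, and this value passed without bFGF/EGF replicate 1 (1.01), bFGF/EGF replicate 3 (1.1) or bFGF/BMP4 replicate 1 (1.03). In BMP4 it was lower than in the control by -0.62 (adjusted p = 0.044), below 2-fold and with overlapping libraries. The limma adjusted p of this fall was 0.066 with no filter, 0.061 on the TPM scale and 0.082 with only the groups compared. It was 0.11 and 0.14 without bFGF/EGF replicate 1 or 3, and 0.13 without BMP4 replicate 2, where the value was -0.36.

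Sox6 (chromosome 7, 115070106 to 115638860, minus strand), its SoxD partner, was at 12.7, 10 and 13.2 FPKM in bFGF/EGF, 6.03, 7.03 and 7.95 FPKM in bFGF/BMP4, and 11.1, 6.87 and 11.1 FPKM in BMP4. The bFGF/BMP4 libraries lay below the control, and BMP4 overlapped with both. Against the control the log2 fold change was -0.76 in bFGF/BMP4 (95% interval -1.22 to -0.31, adjusted p = 0.011) and -0.33 in BMP4 (-0.78 to 0.13, adjusted p = 0.2, limma), without a call. The ratio of Sox6 to Sox5 was 2.68 to 3.03 in bFGF/EGF, 0.781 to 0.973 in bFGF/BMP4 and 3.22 to 3.78 in BMP4. The opposite-strand gene 1110004F10Rik shares 228 of the 16215 exonic bases of Sox6 and was more abundant than Sox6, with 57 to 66.6, 31.6 to 34.9 and 35.5 to 44.8 FPKM, and the fragments it could add to Sox6 were not measured.

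Summed over the 10 genes, the Sox level was 600, 623 and 503 FPKM in bFGF/EGF, 453, 412 and 443 FPKM in bFGF/BMP4, and 365, 343 and 380 FPKM in BMP4, with no overlap between groups on these values. Sox8 enters these sums and the shares below with a length of 3118 bases, against 5093 bases in GENCODE vM39. If the fragment numbers stayed the same, the longer length would lower the bFGF/BMP4 sums and SoxE shares most. Fragments on the added bases were not measured. Whether the groups would still separate in sums and shares was not tested. The SoxB1 genes made up 41.6% ± 4.5, 36.1% ± 1.7 and 40.3% ± 4.7 of this sum in the 3 groups (SD, n = 3 each), and Sox2 gave most of it. The SoxE share was 23.9% ± 2.1, 38.8% ± 5.6 and 29.7% ± 3.1, highest in bFGF/BMP4, where its lowest library (32.3%) was just above the highest BMP4 library (32.2%). The SoxC share was 23.7% ± 2.7, 16% ± 3.7 and 20.5% ± 1.8, and the control and bFGF/BMP4 libraries did not overlap (21 to 26.4% and 13.8 to 20.3%). The SoxB2 share was 8.04% ± 2.1, 5.64% ± 0.66 and 6.11% ± 0.75, and the SoxD share stayed at 2.13 to 3.98% in all libraries.

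**Figure D4:**
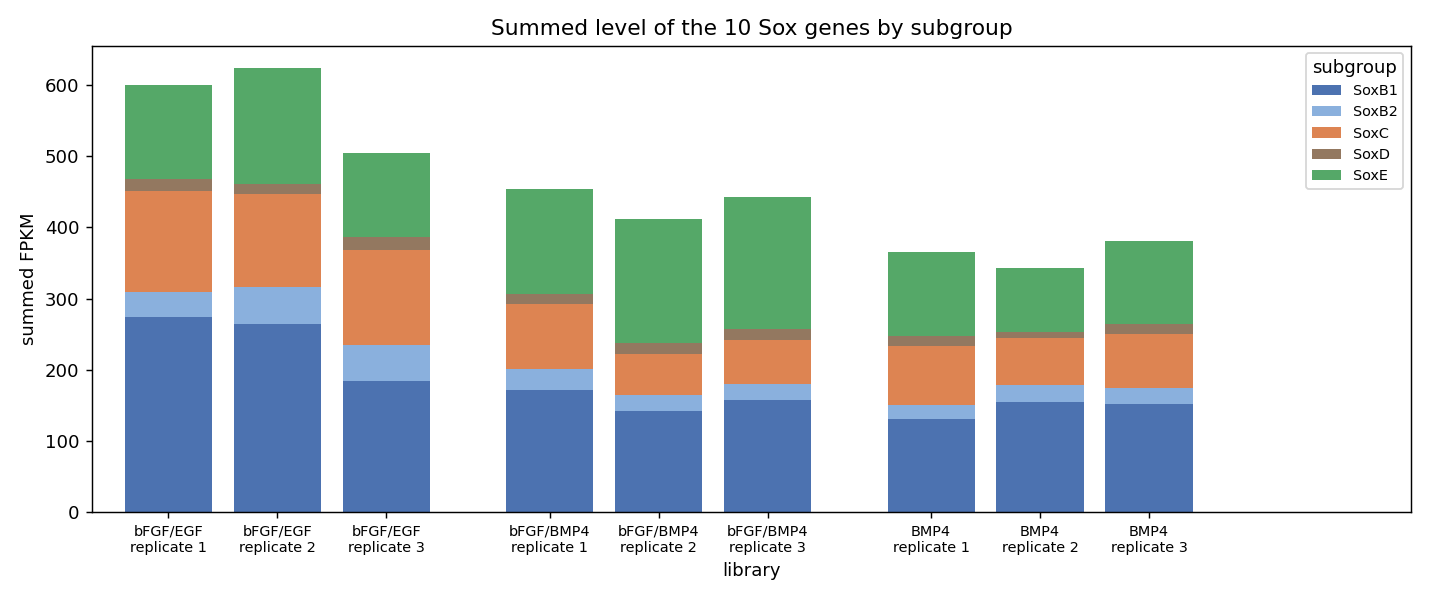
Summed FPKM of the 10 Sox genes in each of the 9 libraries, stacked by subgroup from 0. The control libraries total 503 to 623 FPKM, the bFGF/BMP4 libraries 412 to 453 and the BMP4 libraries 343 to 380, and SoxE makes up 32.3 to 42.2% of the total in bFGF/BMP4. These totals and shares depend on the gene model of Sox8.

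FPKM is per length, so the genes can be ranked within a group, although every step that involves Sox8 depends on its gene model. In bFGF/EGF the order of the mean levels was Sox2, Sox4, Sox8, Sox3, Sox21, Sox9, Sox11, Sox1, Sox6 and Sox5, and neighbours did not overlap at 4 steps: between Sox2 and Sox4, Sox8 and Sox3, Sox11 and Sox1, and Sox6 and Sox5. In bFGF/BMP4 the order was Sox8, Sox2, Sox4, Sox21, Sox9, Sox3, Sox5, Sox6, Sox11 and Sox1, with Sox8 (144 ± 25 FPKM) and Sox2 (137 ± 12) overlapping. In BMP4 the order was Sox2, Sox9, Sox4, Sox8, Sox21, Sox6, Sox11, Sox1, Sox3 and Sox5, with Sox9 (80.3 ± 16 FPKM) and Sox4 (67 ± 7.2) overlapping. Sox3 went from rank 4 in the control to ranks 6 and 9, and Sox9 from rank 6 to ranks 5 and 2.

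Of the other 10 Sox genes of the mouse that were looked up, 3 reached a mean level of 0.1 FPKM and entered the fit. Sox12, the remaining SoxC gene, was at 24.5, 28.2 and 20.4 FPKM in bFGF/EGF, 16.4, 15.2 and 14.7 FPKM in bFGF/BMP4, and 12.9, 9.89 and 12.5 FPKM in BMP4. It was called lower in BMP4 compared with bFGF/EGF (log2 fold change -1.04, adjusted p = 2e-04, limma), at the 2-fold limit, and the value was -0.93 without bFGF/EGF replicate 2 and -0.92 without BMP4 replicate 2. In bFGF/BMP4 its log2 fold change was -0.64 (adjusted p = 0.005), below 2-fold.

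Sox13, the SoxD gene with the lowest level, was at 1.35, 1.61 and 1.14 FPKM in bFGF/EGF, 0.52, 0.59 and 0.615 FPKM in bFGF/BMP4, and 1.94, 1.35 and 1.66 FPKM in BMP4. It was lowest in bFGF/BMP4, with log2 fold changes of -1.11 compared with bFGF/EGF (adjusted p = 0.0021; -0.99 without bFGF/EGF replicate 2) and 1.36 for BMP4 compared with bFGF/BMP4 (adjusted p = 0.0016, limma). Among the SoxD genes, the bFGF/BMP4 libraries lay above all others for Sox5 and below all others for Sox13, while those of Sox6 overlapped with BMP4.

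Sox10, the SoxE gene of the oligodendrocyte lineage, had 8, 44 and 40 fragments in the bFGF/EGF libraries (0.154, 0.912 and 0.742 FPKM) and 0 in all 6 treated libraries. Set against the floor of 3 fragments in a library, its mean was at least 9.41-fold lower in bFGF/BMP4 and at least 10-fold lower in BMP4. This rests mostly on replicates 2 and 3 of the control, and for its lowest library, replicate 1, the bounds were 2.41-fold and 2.56-fold. In the treated libraries the SoxE level therefore came from Sox8 and Sox9. Sox7, Sox15, Sox18 and Sox30 averaged below 0.1 FPKM over the 9 libraries, and Sox14, Sox17 and Sry were at 0 in every library.

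Of 6 factors that are known to bind DNA or act together with SOX proteins, all entered the fit. Pax6, which pairs with Sox2, was called higher in both treated groups, from 1.32 to 1.77 FPKM in bFGF/EGF to 4.57 to 5.09 in bFGF/BMP4 and 6.66 to 7.47 in BMP4 (log2 fold changes 1.6 and 2.16, adjusted p = 1.4e-05 and 1.4e-06, limma). Pou3f1, a POU factor, was called lower, with 23.3 to 38.5 FPKM in bFGF/EGF, 2.93 to 9.29 in bFGF/BMP4 and 2.63 to 4.4 in BMP4 (log2 fold changes -2.52 and -3.17). Chd7, a chromatin remodeller that associates with Sox2, was also called lower, from a mean of 11.8 FPKM to 4.86 and 3.36 (log2 fold changes -1.26 and -1.82). Pou3f2, Pou3f3 and Pou3f4 made no call, and limma called 0 of the 6 between BMP4 and bFGF/BMP4, where 1 was higher (Pax6) and 1 lower (Pou3f3) by adjusted p alone and 1 higher and 2 lower at an unadjusted p under 0.05.

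Of 20 genes known as SOX targets in neural or skeletal cells, 17 entered the fit. Against the control, the bFGF/BMP4 libraries had 2 called higher (Hes5 and Mmd2) and 6 lower (16.5% and 14.1% of all genes), and the BMP4 libraries 6 higher and 3 lower (Nes, Egfr and Pdgfra; 21.3% and 15.4% of all genes). Of BMP4 set against bFGF/BMP4, limma called 6 higher and 0 lower (1 lower by adjusted p alone and 2 at an unadjusted p under 0.05), against 8.41% and 5.14% of all genes. The median log2 fold changes of the list were -0.26, 0.21 and 0.35.

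Among the targets assigned to SoxB1, Nes (nestin, an intermediate filament of NSCs) fell from 145 to 157 FPKM in bFGF/EGF to 2.96 to 3.94 in bFGF/BMP4 and 10.7 to 20.7 in BMP4 (log2 fold changes -5.38 and -3.3), and was higher in BMP4 than in bFGF/BMP4 (2.08, adjusted p = 1e-04). Egfr, the EGF receptor, fell from 41.2 to 44.9 FPKM to 5.62 to 7.31 and 4.91 to 7.14 (log2 fold change -2.75 in both). Hes5, a Notch effector, rose from 0.166 to 2.29 FPKM to 25.3 to 28.3 in bFGF/BMP4 and 6.32 to 9.29 in BMP4 (4.65 and 2.83). Prom1, a membrane protein of NSCs, was at 0.505 to 0.795, 0.121 to 0.191 and 1.25 to 3.34 FPKM, and was called in each comparison (log2 fold change -1.59 in bFGF/BMP4 and 1.68 in BMP4 against the control, and 3.26 between both treated groups). Of the other SoxB1 targets, Fabp7 was called lower in bFGF/BMP4 than in the control (-1.27, adjusted p = 0.00038, limma). Nr2e1 was higher in both treated groups by adjusted p alone (0.67 and 0.73), and Notch1 made no call.

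Tubb3, a neuronal tubulin known as a SoxC target, was at 17.6 to 24.9 FPKM in bFGF/EGF, 13.4 to 20 in bFGF/BMP4 and 101 to 179 in BMP4, and rose in BMP4 compared with both other groups (log2 fold changes 2.8 and 3.06, adjusted p = 5.4e-06 and 1.7e-05, limma). Of the other genes of the list known as SoxC targets, Dcx rose in BMP4 compared with the control (1.44, adjusted p = 0.05, limma), from a mean of 0.187 to 0.904 FPKM. Its BMP4 libraries were at 1.99, 0.342 and 0.384 FPKM against 0.11 to 0.233 in the control, so that mean rests largely on replicate 1. Stmn1 was called lower in bFGF/BMP4 than in the control (-1.89, adjusted p = 0.00013, limma). It was called higher in BMP4 than in bFGF/BMP4 (1.03, adjusted p = 0.012, limma). Against the control, Stmn1 in BMP4 was at -0.86 (adjusted p = 0.012) and Tead2 at -0.65 (adjusted p = 0.031, limma), both under 2-fold. Neurod1 was not tested. Of the SoxE targets, Mmd2 rose from 2.95 to 3.42 FPKM to 74.3 to 78.7 in bFGF/BMP4 and 114 to 117 in BMP4 (log2 fold changes 4.57 and 5.17, standard error 0.1), and Erbb3 was called higher in BMP4 than in both other groups, at 0.452 to 0.809 FPKM (44 to 79 fragments) against 0.021 to 0.0391 in bFGF/EGF (2 to 4 fragments), which leaves the size of that change uncertain. No other SoxE target of the list was called higher. Nfia and Apcdd1 made no call, and Col2a1 and Acan were not tested. Apcdd1 was higher in BMP4 than in the control (0.94, adjusted p = 0.022, limma), just under 2-fold, with means of 0.573 and 0.256 FPKM. Zcchc24 was higher in bFGF/BMP4 than in the control (0.71, adjusted p = 0.00098, limma). In BMP4 it was lower than in bFGF/BMP4 (-0.5, adjusted p = 0.017, limma), both under 2-fold. Pdgfra, assigned to SoxD and SoxE, was called lower in both treated groups (-1.91 and -1.99). Whether any of these genes depended on a SOX protein in these cells was not measured.

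For each Sox gene, the pair of protein-coding genes with the most similar profile was sought among 11212 genes with a mean of at least 1 FPKM, by Pearson's r of the log2 values over the 9 libraries. These points form 3 groups, so r mostly reflects the group means, and with so many candidates a high r is found for any profile. Nearest to Sox3 were Src (0.995) and Slc6a11 (0.993), a GABA transporter that went from 48.7 to 18.3 and 5.57 FPKM. Nearest to Sox8 were Ptpn9 (0.99) and Igfbp3 (0.989), an IGF-binding protein at 726, 1100 and 145 FPKM. For Sox9 they were Heg1 (0.989) and Zfp36l1 (0.979), and for Sox5 Plekhg1 (0.981) and Ntrk3 (0.974), the neurotrophin-3 receptor at 2.78, 7.64 and 1.87 FPKM.

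For Sox11, Neurl1a had 0.997, and Sox1 was closest to Poldip3 (0.996) and Tbcd (0.992). Sox21 was closest to Ggt7 (0.989) and Rps12 (0.979), Sox4 to Ccdc9 (0.981) and Mapkapk5 (0.97), and Sox6 to Sgip1 (0.973) and Prrg4 (0.968). Sox2, whose groups overlapped, had the lowest values, 0.908 with Pih1d1 and 0.898 with Pfdn6.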

How the data were processed

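The 9 libraries of NSC RNA fell into 3 groups of 3. According to the labels, the authors cleaned reads with fastp 0.19.7, aligned them to mm39 with HISAT2 2.0.5 and counted with featureCounts 1.5.0-p3, and they tested with DESeq2. The authors deposited FPKM, that is fragments per length of the gene and per size of the library, for 55704 genes. The annotation release and strand setting are not given in the sources used here. Whole fragment numbers were recovered for all 30860 genes above 0 (tolerance 0.05 fragments).

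Because the table holds FPKM, limma 3.58.1 (R 4.3.3) with a trend was fitted on log2(FPKM + 0.1) for 20207 genes that averaged 0.1 FPKM or more. All 9 libraries entered the fit. Fold changes are on that scale, which understates those of low genes. Calls needed 2-fold or more together with an adjusted p of 0.05 or less. The fit was tested on simulated data. The Sox genes, the other lists and the tests were chosen with earlier results of these data known. Named genes were the 10 Sox genes, other Sox genes with a mean of at least 0.1 FPKM, at most 8 called partners and targets by largest fold change (other partners, targets and markers named were chosen after their values were seen), 2 genes of most similar profile per Sox gene (1 of those for Sox11 is not reported here), and Mki67. Replicate numbers were not used to pair the libraries in the main fit. Alternatives were another pseudocount, filters, scalings, limma-voom on fragments, a replicate block, only the groups compared, no fold threshold, and each library left out. Sequences and positions came from GENCODE vM39 and GRCm39, read with Python 3.11.15, and figures were drawn with matplotlib 3.10.9.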

Additional observations from a re-analysis of the deposited data

Results flagged for a closer look

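For 4 of the 10 Sox genes (5.14% of all genes were called lower and 8.41% higher), the effect of BMP4 differed from that of bFGF/BMP4, both against the same bFGF/EGF libraries, by the limma test of the difference itself with its adjusted p and a 2-fold limit, which is the same test as BMP4 compared with bFGF/BMP4. The difference in log2 fold change was -1.78 for Sox3 (lower in 3 of 3 BMP4 libraries than in any bFGF/BMP4 library), -1.6 for Sox5, -2.38 for Sox8 and 1.71 for Sox9, and the libraries of both groups did not overlap for any of the 4, as for 38.7% of all genes. For Sox9 and Sox5 the effects had opposite signs (Sox9 -0.77 in bFGF/BMP4 and 0.95 in BMP4, Sox5 0.98 and -0.62), and each of these 4 effects was below 2-fold.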

How the results depend on the processing

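Over 36 values (3 comparisons of the 10 Sox genes, Sox12 and Sox13), the alternatives gave 648 values. Of these, 629 kept the same call or lack of one, 12 lost and 7 gained the 2-fold call, and 0 calls reversed. These counts follow neither the sign nor the adjusted p of values without a call. For example, Sox13 in BMP4 compared with bFGF/EGF had 0.25 in the main fit and -0.01 with quantile normalization, without a call in either. With no fold threshold, bFGF/BMP4 had 2 Sox genes higher and 7 lower than the control, and BMP4 had 1 higher, where quantile normalization also gave 1 (Sox9, 1.03). The share of all genes without the fold threshold is not given here. Leaving out single libraries, the number higher than the control ran from 0 to 1 for bFGF/BMP4 (Sox5) and from 0 to 1 for BMP4 (Sox9). Sox21 in BMP4 had -1 with a pseudocount of 1 and -0.96 with quantile normalization, and Sox12 -0.99 and -0.96. Sox13 had -0.58 and 0.74 with a pseudocount of 1. The replicate block left the counts at 0 higher and 3 lower, 0 and 5, and 1 and 3 in the 3 comparisons. Same-numbered libraries of different groups had correlations of deviations from -0.084 to 0.125, and differently numbered ones from -0.154 to 0.081. These values cannot decide whether same-numbered libraries came from one isolation, which the labels do not say. Over all genes, the calls fell from 3327 higher and 2847 lower to 1723 and 1821 (bFGF/BMP4 against the control), from 4297 and 3103 to 2326 and 2038 (BMP4 against the control) and from 1699 and 1039 to 890 and 559 (between both) with a pseudocount of 1. A mean of at least 1 FPKM gave 2649 higher in the second and 1012 higher in the third. Quantile normalization shifted the median of all genes by -0.13 in the second comparison and limma-voom by -0.11 in the first. The culture time of the control, strand setting and gene models limit the comparisons beyond these alternatives.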

Other observations

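Non-coding transcripts at the Sox loci did not always follow their Sox gene. Sox2ot, a long non-coding RNA on the same strand whose span holds Sox2 but shares 0 exonic bases with it, was at 2.56, 2.61 and 2.8 FPKM in bFGF/EGF, 1.81, 1.88 and 1.52 FPKM in bFGF/BMP4, and 3.41, 3.74 and 3.24 FPKM in BMP4. The 3 groups did not overlap, whereas those of Sox2 did. BMP4 exceeded bFGF/BMP4 by 0.96 on the log2 scale (adjusted p = 0.0013, limma), and bFGF/BMP4 differed from the control by -0.59 (adjusted p = 0.0086), both under 2-fold.

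Sox1ot, which spans Sox1 on the same strand, had 17 to 31 fragments in bFGF/EGF, 29 to 64 in bFGF/BMP4 and 79 to 180 in BMP4, and was called higher in BMP4 compared with bFGF/EGF (log2 fold change 1.71, adjusted p = 0.0042, limma), the comparison in which Sox1 was called lower. Sox6os, on the other strand of Sox6, was called higher in the same comparison (1.36, adjusted p = 0.031), from 2 to 9 fragments to 10 to 18, and shares 261 exonic bases with Sox6. Sox21os1 made no call.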
